A study of Homo sapiens with 22 samples.

Results

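The 7 genes described here encode the kinases that start S phase and their partners: CDC7, DBF4, DBF4B, CDK2, CCNE1, CCNE2 and CCNA2. They were named by hand, and for each the RefSeq span on hg38 was taken with 20 kb added on each side, out of 19970 protein-coding genes on chromosomes 1 to 22 and X treated the same way. Together the 7 windows covered 423.8 kb. They held 12 of 29848 MTBP peaks, 18 of 62388 H3K4me2 peaks and 4 of 2473 initiation zones.

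A replication origin is loaded with an inactive MCM helicase in G1, and S phase begins when kinases switch that helicase on. CDC7 is the catalytic subunit of the kinase DDK, which phosphorylates MCM subunits and works only when bound to DBF4 or to its relative DBF4B. CDK2, bound to cyclin E (CCNE1 or CCNE2) and then to cyclin A (CCNA2), phosphorylates Treslin, the partner of MTBP, and so helps bring CDC45 and GINS to the helicase. Several of these genes are known targets of E2F factors, which raise their transcription as cells leave G1.

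The cells were DLD-1, a human colorectal adenocarcinoma cell line, and every derivative used carried an MTBP-mAID allele, that is, MTBP fused to an auxin-inducible degron. CUT&RUN releases the DNA around an antibody-bound protein with a tethered nuclease. It was applied with anti-FLAG to MTBP-mAID/MTBP-deltaC-FLAG cells (3 libraries), whose tagged MTBP lacks its C terminus, and to MTBP-mAID/MTBP-WT-FLAG cells (3 libraries), whose tagged MTBP is full length. H3K4me2, a histone mark of active promoters and enhancers, was profiled in the WT line (2 libraries). EdU-seq, which sequences newly made DNA labelled with a nucleotide analogue, was done on deltaC and WT cells released from G1 with HU and aphidicolin present (3 libraries each). EdU was at 10 µM for 3 hr. The number of clones behind each line is not given in the sources used here. As a check of the line, H3K4me2 lay within 1 kb of a start of 7 of 8 colorectal epithelium genes (EPCAM, CDH1, VIL1, CDX2, KRT8, KRT18 and KRT20, but not CDH17), and of 2 of 4 blood, 0 of 3 liver, 0 of 3 muscle and 1 of 3 neuron genes. The deposited lists held 1 value per line and peak, so there was no spread between replicates and no test, and every value below is a description. The scaling of the deltaC and WT values is not stated, and over the whole list the median log2((deltaC + 1)/(WT + 1)) was -0.93. Each log2 ratio is therefore also placed against that median.

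The promoters that carry the contrast are shown first: those of CDC7, DBF4 and CCNA2 lay inside an MTBP peak, and those of DBF4B and CCNE1 had H3K4me2 without MTBP. Each run is the RefSeq sequence (GRCh38.p14) just before the gene start, 5′ to 3′ on the gene's strand, with any E2F core or CHR core in capitals. The E2F core was searched on both strands in the spelling TTCCCGC and in the spellings TTGGCGC and also TTCGCGC and lastly TTGCCGC. The CHR core was searched as TTTGAA, also on both strands. A match, or its absence, describes these letters only.
CDC7: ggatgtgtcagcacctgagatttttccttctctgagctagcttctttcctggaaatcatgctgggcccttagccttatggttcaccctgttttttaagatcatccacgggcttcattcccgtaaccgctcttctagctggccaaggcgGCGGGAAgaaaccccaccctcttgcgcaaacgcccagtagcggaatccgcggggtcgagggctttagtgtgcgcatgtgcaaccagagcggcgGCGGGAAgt
DBF4: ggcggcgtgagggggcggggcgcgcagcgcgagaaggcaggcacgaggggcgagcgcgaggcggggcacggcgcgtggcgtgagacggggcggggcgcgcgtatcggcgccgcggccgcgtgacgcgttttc
CCNA2: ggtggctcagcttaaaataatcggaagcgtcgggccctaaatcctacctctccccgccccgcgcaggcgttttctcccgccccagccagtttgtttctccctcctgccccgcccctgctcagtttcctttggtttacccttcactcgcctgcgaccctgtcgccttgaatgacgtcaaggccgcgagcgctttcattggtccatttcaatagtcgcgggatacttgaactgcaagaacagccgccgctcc
DBF4B: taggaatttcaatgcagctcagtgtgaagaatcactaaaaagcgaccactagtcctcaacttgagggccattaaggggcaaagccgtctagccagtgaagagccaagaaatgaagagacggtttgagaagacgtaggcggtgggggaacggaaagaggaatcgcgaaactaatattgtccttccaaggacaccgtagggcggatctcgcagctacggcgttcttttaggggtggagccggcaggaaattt
CCNE1: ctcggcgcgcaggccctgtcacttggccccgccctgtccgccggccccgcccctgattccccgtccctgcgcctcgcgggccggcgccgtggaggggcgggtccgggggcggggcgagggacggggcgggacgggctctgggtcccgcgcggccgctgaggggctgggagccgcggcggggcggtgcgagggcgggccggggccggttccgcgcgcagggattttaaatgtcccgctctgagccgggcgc
The CDC7 run (chr1:91500601-91500850, plus strand) held 2 E2F cores, both as the reverse complement GCGGGAA. The DBF4 run (chr7:87876361-87876492, plus strand) is the 132 bases between DBF4 and the gene SLC25A40 and held 2 GC boxes, GGGCGG on either strand. The CCNA2 run (chr4:121823884-121824133, minus strand) held 1 CCAAT box, CCAAT on either strand, and 3 GC boxes. The DBF4B run (chr17:44708415-44708664, plus strand) held 1 GC box and the CCNE1 run (chr19:29811741-29811990, plus strand) held 7. In the 4 runs other than that of CDC7 neither the E2F core nor the CHR core was found. The full 300-base window of DBF4 held 1 CHR core outside the printed bases.

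These matches were common among promoters. Over the 22131 protein-coding windows of 300 bases in the table, 16.1% held an E2F core, 12.4% a CHR core, 34.6% a CCAAT box and 56.3% a GC box. Among the 8584 windows that touched an MTBP peak, the E2F core was found in 22.7%, against 18.1% of the 4759 that had H3K4me2 and no MTBP. Promoters with and without MTBP overlapped in base composition at these genes. The G and C content of the 300-base windows was 57.0% for CDC7 (first of 2 windows), 70.7% for DBF4 and 61.0% for CCNA2, all with MTBP, and 51.3% for DBF4B and 81.0% for CCNE1, both without. CCNE1 thus had the highest and DBF4B the lowest value of the 5.

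CDC7, the catalytic subunit of DDK, had a single strong MTBP site at its start and no initiation zone in its window. The gene lies at chr1:91500851-91525764. Its MTBP peak (1:91500392-91501798, score 446, promoter class) had its summit 129 bp from a gene start and covered all 300 bases of the promoter window. The authors' values were 656.8 in deltaC and 1115 in WT, which put the peak at percentile 98.0 of the list in deltaC and 97.2 in WT. The log2 ratio of -0.76 was 0.17 above the list median. The H3K4me2 peak beneath it (1:91500062-91503190) had a fold enrichment of 56.4 over background, the highest of the 18 and at percentile 99.4 of its list. MTBP covered 45.0% of it. The nearest zone (67.1 kb wide, score 1197) began only 127 bp beyond the edge of the window, 20127 bp from the gene.

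DBF4, the activating subunit of DDK, shared its MTBP site with a divergent neighbour and lay far from any zone. The gene (chr7:87876493-87909553) starts 133 bp from the start of SLC25A40, a mitochondrial carrier gene. A promoter-class peak (7:87875815-87877389, score 277) covered both starts, with its summit 79 bp from that of DBF4. It was annotated to an SLC25A40 transcript, with the gene name DBF4. Its values were 370.1 in deltaC and 634.8 in WT (log2 ratio -0.78, 0.16 above the list median). Its H3K4me2 peak had a fold of 31.7. A second, weaker peak (7:87926507-87927057, score 103) lay beyond the other end of the gene and was annotated to an L1PB1 element, a LINE repeat. That peak was the reverse of most, with 251.5 in deltaC and 218.5 in WT. Its log2 ratio of 0.20 was at percentile 97.5 of the list. The nearest zone was 10.4 Mb from DBF4, and only 1.69% of protein-coding genes (338) had a zone farther away.

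DBF4B, the second activator of CDC7, was the opposite case: its start lay in a zone and had no MTBP peak. The gene (chr17:44708665-44752264) had 2 zones in its window, which filled 71.4% of it, and the first (17:44676121-44715430, 39.3 kb, score 460.9) contained the start. H3K4me2 was present there (17:44707861-44709984, fold 21.3), and in the list 62.1% of H3K4me2 peaks in the same decile of fold had MTBP. The stronger of the 2 MTBP peaks (17:44688954-44691584, score 266) lay 17081 bp from the DBF4B start and was annotated to CCDC43, a neighbouring gene. Its values were 246.7 in deltaC and 813.8 in WT, and its log2 ratio of -1.72 was 0.79 below the list median. The other peak (17:44747483-44748348, score 190) lay in the last intron of an annotated DBF4B transcript, with 109.4 in deltaC and 215.4 in WT (log2 ratio -0.97). It fell in the second zone (17:44739350-44805991, 66.6 kb, score 781.2), and its H3K4me2 fold of 7.86 was among the lowest of the 18. On chromosome 17 the median log2 ratio over 1551 peaks was -1.22, lower than that of any other chromosome with one of the 7 genes.

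**Figure D1:**
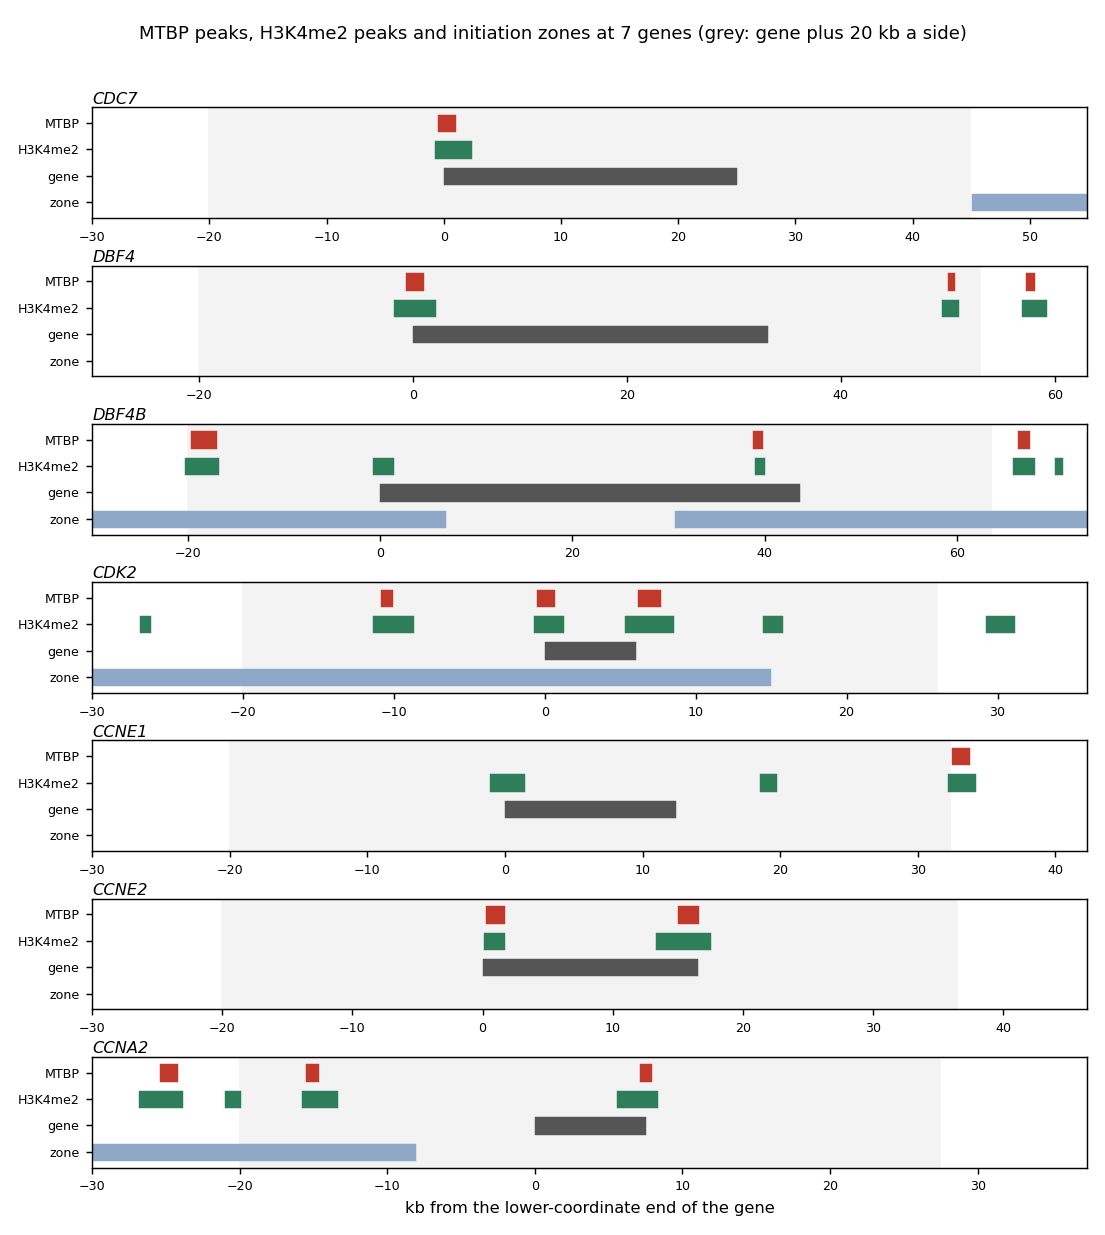
MTBP peaks (red), H3K4me2 peaks (green), the gene (dark grey) and initiation zones (blue) at the 7 genes, in kb from the lower-coordinate end of each gene, with the gene plus 20 kb a side shaded. MTBP covers a start at CDC7, DBF4 and CCNA2 and an end at CDK2 and CCNE2, whose strand was not in the table, DBF4B has zones at both ends, and at CCNE1 the only MTBP peak drawn lies 124 bp outside the shaded window.

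CDK2, the S-phase cyclin-dependent kinase, had the densest locus of the 7, with 6.53 MTBP peaks and 8.70 H3K4me2 peaks per 100 kb. All 3 of its MTBP peaks lay in 1 zone (12:55914709-55981780, 67.1 kb, score 1221), which filled 76.0% of the window and contained the whole gene (chr12:55966830-55972789). The peak at the gene's lower-coordinate end (12:55966291-55967449, score 150) also covered the end of PMEL, a melanosome gene 121 bp away. It was annotated to a PMEL transcript, with the gene name CDK2. Its values were 157.6 in deltaC and 423.5 in WT, with its summit 64 bp from the end of CDK2. The strongest of the 12 peaks (12:55973033-55974445, score 858, percentile 99.1 of the list) lay 244 bp past the other end of CDK2 and was annotated to RAB5B, a small GTPase gene. It had 642.7 in deltaC and 1291 in WT. The third, an enhancer-class peak in a PMEL intron (12:55955999-55956711, score 180), had 108.0 in deltaC and 396.2 in WT. All 3 were at least 2-fold lower in deltaC, with log2 ratios of -1.42, -1.01 and -1.87. Relative to the list median these were -0.49, -0.07 and -0.93, so none of them was past 2-fold after that centring. H3K4me2 at these peaks had a fold of 29.5, 27.7 and 10.6. One more H3K4me2 peak (12:55981298-55982544, fold 24.3) had no MTBP.

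CCNE1, the first cyclin E gene, was the only member with no MTBP peak in its window and no zone. The gene lies at chr19:29811991-29824312. Its start had H3K4me2 (19:29810901-29813339, fold 19.0), in a decile of the list in which 62.1% of peaks had MTBP. A further H3K4me2 peak (19:29830539-29831649, fold 22.8) also lacked MTBP, where 71.3% of its decile had it. The third (19:29844216-29846121, fold 22.6) crossed the window edge with 97 of its bases inside, and it did carry MTBP, but that peak (19:29844436-29845681, score 140, enhancer class) began 124 bp outside the window. It had 117.9 in deltaC and 360.4 in WT. The nearest zone was 2.84 Mb away, and 11.6% of protein-coding genes had a zone farther off. Within 1 Mb of the gene there were 4 MTBP peaks, 15 H3K4me2 peaks and 0 zones, the fewest MTBP and H3K4me2 peaks of the 7 loci.

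CCNE2, the second cyclin E gene, had the 2 highest deltaC to WT ratios among the peaks at a gene body, and no zone. The gene lies at chr8:94880224-94896693. A promoter-class peak annotated to a CCNE2 transcript (8:94895229-94896742, score 266) covered its higher-coordinate end, with 379.6 in deltaC and 420.3 in WT. That log2 ratio of -0.15 was 0.79 above the list median and at percentile 95.3 of promoter-class peaks. The same peak overlapped the lower end of NDUFAF6, a gene for a complex I assembly factor that overlaps CCNE2. NDUFAF6 is also the gene name that the authors' annotation gives this peak. At the other end of CCNE2, where the neighbouring gene INTS8 ends, lay the only peak of the 12 named for deltaC (8:94880461-94881838, score 117). It had 427.2 in deltaC and 281.8 in WT, a log2 ratio of 0.60, at percentile 99.0 of the list. Peaks named for deltaC made up 2.94% of the list, and 75.4% of them had the higher value in deltaC, against 2.38% of peaks named for WT. H3K4me2 at this peak had a fold of 7.26, the lowest of the 18, and MTBP covered 90.8% of it, the most of any.

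CCNA2, which encodes cyclin A2, had 2 weak MTBP peaks of almost equal WT value. The gene lies at chr4:121816444-121823883. The peak at its start (4:121823572-121824321, score 121) was annotated to CCNA2, had its summit 143 bp from the start and covered the whole promoter window. Its values were 192.3 in deltaC and 245.6 in WT (log2 ratio -0.35, 0.58 above the list median). The other (4:121800931-121801720, score 140) lay at the start of EXOSC9, which encodes an RNA exosome subunit, with 149.4 in deltaC and 247.9 in WT (log2 ratio -0.73). Only the EXOSC9 peak was in a zone (4:121781789-121808341, 26.6 kb, score 491.95), which ended 8103 bp from CCNA2. H3K4me2 had a fold of 23.2 at the CCNA2 start and 32.4 at EXOSC9. A further H3K4me2 peak (fold 12.3) crossed the window edge with 12 of its bases inside and had no MTBP.

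Over the 7 genes, MTBP lay within 1 kb of a start of 5 (CDC7, DBF4, CDK2, CCNE2 and CCNA2), against 42.7% of all protein-coding genes. H3K4me2 lay there at all 7, against 63.8%. Among the protein-coding genes with H3K4me2 at a start, 66.9% had MTBP there too, so 5 of 7 is near that background. In the 20-kb windows, 6 of the 7 genes had MTBP, against 71.1% of all windows, 7 of 7 had H3K4me2, against 86.2%, and 3 of 7 had a zone, against 32.1%. A start lay in a zone at 2 of the 7 (DBF4B and CDK2), against 20.9%. The strand of CDK2 and CCNE2 was not in the table of starts, so either end of these genes counted as a start. Per 100 kb of window there were 2.83 MTBP peaks at the 7 genes and 1.76 over all protein-coding genes, and 4.25 and 3.33 H3K4me2 peaks. The windows of the 7 genes were shorter, with a median of 56.5 kb against 64.2 kb, and these densities depend on window length. Per window the median count was 3 H3K4me2 peaks in both sets, and 2 MTBP peaks at the 7 genes against 1. Whether the densities differ at matched window length was not tested. All 12 MTBP peaks overlapped H3K4me2, against 98.9% of the list.

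The MTBP peaks at these genes were not exceptional in score. Their scores ran from 103 to 858 with a median of 185, against 190 over the list, and 6 of the 12 were below the list median. By the authors' classes 8 were promoter peaks, 1 was an enhancer peak and 3 were others, against 34.7%, 17.6% and 47.7% of the list. The windows were placed on genes and so hold promoters by design. Class shares over other gene windows were not computed. At CDK2 and CCNE2 a peak lay within 1 kb of each end, and the peak that overlapped an end is ranked here. In order of WT value these peaks ran from CDC7 (1115) through DBF4 (634.8), CDK2 (423.5) and CCNE2 (420.3) to CCNA2 (245.6). In deltaC the order was CDC7 (656.8), CCNE2 (379.6), DBF4 (370.1), CCNA2 (192.3) and CDK2 (157.6). The authors' annotation holds both a transcript and a gene name, and at these peaks they differ. For the ranked CDK2 peak the transcript is of PMEL and the gene name is CDK2, 39 bp from a start. For the ranked CCNE2 peak the transcript is of CCNE2 and the gene name is NDUFAF6, 172 bp from a start. Those near the other ends were annotated to the RAB5B promoter and to the end of INTS8. Under the either-end rule alone, CDK2 would have 642.7 in deltaC and 1291 in WT, next after CDC7 in deltaC and above it in WT. CCNE2 would have 427.2 and 281.8. With 1 value per line, which neighbours in these orders differ beyond replicate spread cannot be said.

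**Figure D2:**
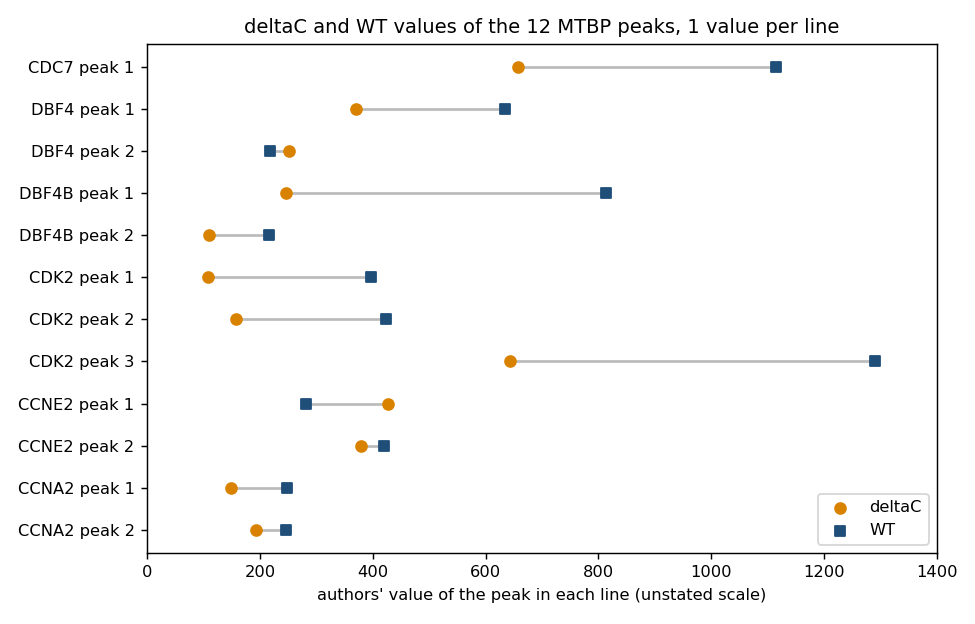
The authors' value of each of the 12 MTBP peaks in deltaC (orange circles) and WT (blue squares), on a linear axis of unstated scale, numbered by position along the chromosome. As deposited the deltaC value is the lower at 10 peaks, of which 5 stay lower after centring on the list median, and the higher at DBF4 peak 2 (251.5 against 218.5) and CCNE2 peak 1 (427.2 against 281.8).

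Most of the 12 peaks had a lower deposited value in deltaC than in WT, as did most of the list, and 5 of the 12 did after centring on the list median. As deposited, deltaC was lower at 10 and higher at 2, where 4.52% of all peaks were higher in deltaC. At least 2-fold lower were 4 of the 12, against 44.9% of the list, and 3 of the 8 promoter-class peaks were, against 47.6% of that class. The 4 were the CCDC43 peak in the DBF4B window and the 3 peaks of the CDK2 window. At least 2-fold higher were 0 of the 12, against 0.419% of the list. Across the 12 peaks the median log2 ratio was -0.77 as deposited and turned to 0.16 when centred on the list median, with 7 peaks above that median and 5 below. After centring, 2 peaks were past 2-fold, both higher in deltaC: the L1PB1 peak beyond DBF4 (1.13) and the deltaC-named peak at CCNE2 (1.53). Both were weak, with scores of 103 and 117 and WT values at percentiles 15.7 and 30.7 of the list. The share of the list past 2-fold after centring was not computed, so this count has no background.

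Of the 12 peaks 6 lay in a zone, against 23.0% of the list, and of the 18 H3K4me2 peaks 9 did, against 17.6%. The 6 MTBP peaks in zones (in the DBF4B, CDK2 and CCNA2 windows) had log2 ratios from -1.87 to -0.73, with a median of -1.21. The 6 outside zones (at CDC7, DBF4, CCNE2 and CCNA2) ran from -0.78 to 0.60, with a median of -0.25. The 2 sets overlapped only between -0.78 and -0.73. In the list, the medians were -1.14 for 6860 peaks in zones and -0.87 for 22988 outside, so the direction was that of the list. The 3 CDK2 peaks share 1 zone, while the 2 DBF4B peaks lie in 2 different zones. CCNA2 had a peak of each kind, and its zone peak was the lower, at -0.73 against -0.35.

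**Figure D3:**
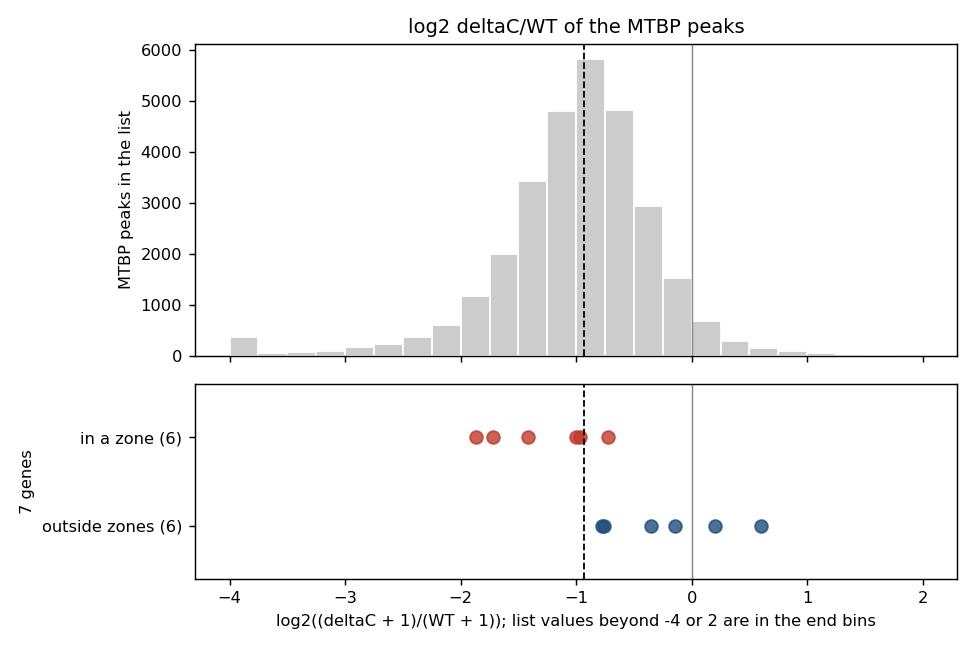
Number of MTBP peaks in the list by log2((deltaC + 1)/(WT + 1)) (upper panel, bins of 0.25) and the 12 peaks at the 7 genes split by zone (lower panel), with the list median of -0.93 dashed. The 6 peaks in zones run from -1.87 to -0.73 and the 6 outside from -0.78 to 0.60.

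H3K4me2 at the 7 genes was stronger and wider than in the list as a whole. The 18 peaks had a median fold of 23.0 and a median width of 2252 bp, against 14.4 and 1408 bp. MTBP overlapped 13 of them, or 72.2% (95% Wilson interval 49.1 to 87.5%, which covers counting error only), against 43.6% of the list. That interval treats the 18 peaks as independent, though up to 4 share a window, so it is no test against the list. Those 13 had a median fold of 25.4, against 23.0 for list peaks with MTBP. The 5 without had 21.3, against 9.35 for list peaks without. Fold, width and the share with MTBP were not compared with H3K4me2 peaks in other gene windows. By fold, 13 of the 18 were in the upper 4 deciles, where 9 had MTBP, against 74.1% of list peaks there. In the lower 6 deciles 4 of 5 had MTBP, against 23.2%. The 5 without MTBP were the DBF4B start, the CDK2 peak farthest along the chromosome, 2 at CCNE1 and 1 at the edge of the CCNA2 window, with folds of 12.3 to 24.3. Above the strongest of these 5 stood 7 peaks with folds from 25.4 to 56.4. That cut was set by these same peaks, so that all 7 had MTBP is no separate result. In the list, 71.3% of peaks in decile 8 and 84.6% in decile 10 had MTBP.

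**Figure D4:**
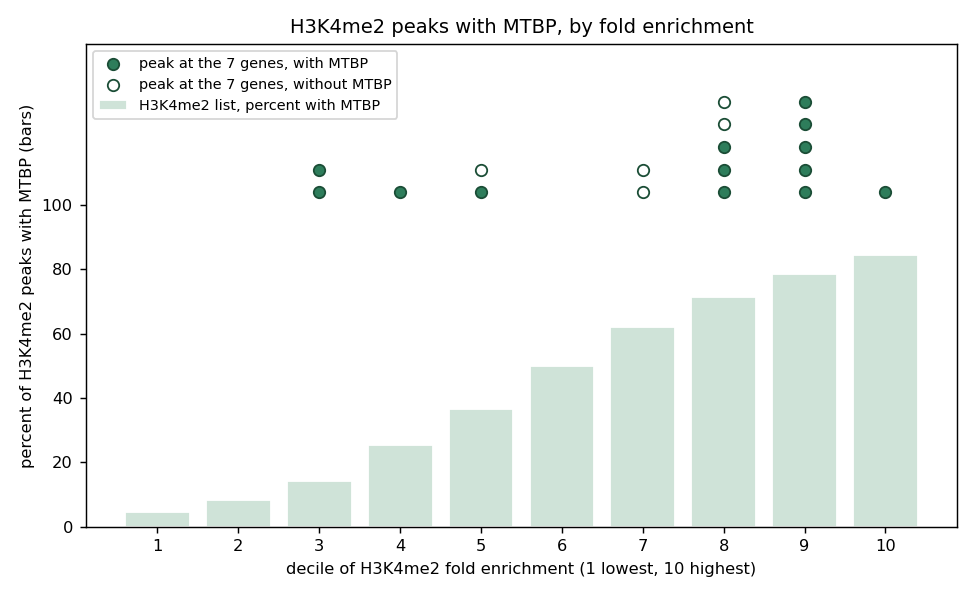
Percent of H3K4me2 peaks with MTBP in each decile of fold enrichment over the list (bars), with the 18 H3K4me2 peaks at the 7 genes placed above their decile (filled with MTBP, open without). The 5 open points are in deciles 5, 7 and 8, where 36.7%, 62.1% and 71.3% of list peaks had MTBP.

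The 4 zones at these genes were of ordinary strength, with scores of 460.9 to 1221 against a list median of 628.0, and widths of 26553 to 67072 bp against a list median of 48322 bp. Zone density around the genes varied widely. Within 1 Mb there were 13 zones at DBF4B, 7 at CDK2, 6 at CCNE2, 2 at CCNA2, 1 at CDC7 and 0 at DBF4 and CCNE1. MTBP peaks within 1 Mb numbered 53 at DBF4B, 46 at CDK2, 43 at CCNE2, 24 at CDC7, 19 at DBF4, 17 at CCNA2 and 4 at CCNE1. DBF4 thus had MTBP around it at a number close to that of CCNA2 and CDC7, with no zone.

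Other genes of the same network were read with the same window. Of 28 genes, 26 had MTBP in the window, 27 had H3K4me2 and 9 had a zone, and 21 had MTBP within 1 kb of a start (75.0%, against 71.4% of the 7). Of their 59 MTBP peaks, 49.2% were at least 2-fold lower in deltaC, near the 44.9% of the list, and the median log2 ratio was -0.99. Among the CDK2 inhibitors, CDKN1B had MTBP at its start (154.4 in deltaC and 251.3 in WT), and CDKN1A and CDKN1C did not. All 6 genes of CDK2 activation and partners did, from CKS1B (score 977, 928.9 in deltaC and 2116 in WT) and CDC25A, the phosphatase that activates CDK2 (134.0 and 302.2), to CCNH, the cyclin of the CDK-activating kinase. The start peak of CCNH was higher in deltaC (335.7, against 277.6 in WT). Summed over the 2 MTBP peaks of the CCNH window, the values were 363.5 in deltaC and 606.6 in WT. Both inhibitory kinases, WEE1 and PKMYT1, had an end in a zone, and of the pair WEE1 had MTBP within 1 kb of an end (485.6 in deltaC and 1078 in WT).

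Among the genes of cyclin turnover, FBXW7, the receptor that marks cyclin E for destruction, had a peak at its start (392.3 in deltaC and 610.7 in WT). FZR1, which activates the ligase that degrades cyclin A, had 103.2 in deltaC and 552.9 in WT, the lowest log2 ratio of the start peaks in this list (-2.41). CUL1 had no MTBP in its window and had 6 H3K4me2 peaks. Of the kinase targets at origins, MCM2, MCM4, MCM6 and TICRR, which encodes Treslin, had MTBP at a start, and RECQL4 did not. RIF1, which recruits a phosphatase that opposes DDK, had 131.8 in deltaC and 272.2 in WT. Of the related CDKs and cyclins, CDK1, CCNB1 and CCNB2 had MTBP at a start, and CCNA1, the germ-line cyclin A, had neither MTBP nor H3K4me2 in its window.

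The 7 genes were set beside 3 gene groups of like function. MTBP within 1 kb of a start was found at 5 of 7, against 5 of 6 MCM helicase genes, 8 of 9 licensing genes (ORC, CDC6, CDT1 and GMNN) and 11 of 16 G1 cyclin, RB and E2F genes. A zone in the window was found at 3 of 7, against 4 of 6, 1 of 9 and 5 of 16. The share of MTBP peaks at least 2-fold lower in deltaC was 33.3% (4 of 12) at the 7 genes, against 57.1%, 56.2% and 44.0%, which was below all 3 groups. The median log2 ratio of the 7 genes, -0.77, was above those of the 3 groups (-1.005, -1.12 and -0.92). Neither value was particular to the 7 genes. Within the network, the kinase targets at origins had a share of 22.2% (2 of 9 peaks), and the other parts ran from 41.7% to 100%. The CDK2 inhibitors also had a median log2 ratio of -0.77. MCM2, MCM4 and MCM6 stand in both the network list and the MCM group. Both values of the 7 genes depend on the flank. With 0 kb added, 1 of 7 peaks was past 2-fold and the median was -0.76. With 50 kb added, 9 of 21 were and the median was -0.92, near the list median of -0.93. The groups are given with 20 kb only. No test of the differences between groups was made.

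**Figure D5:**
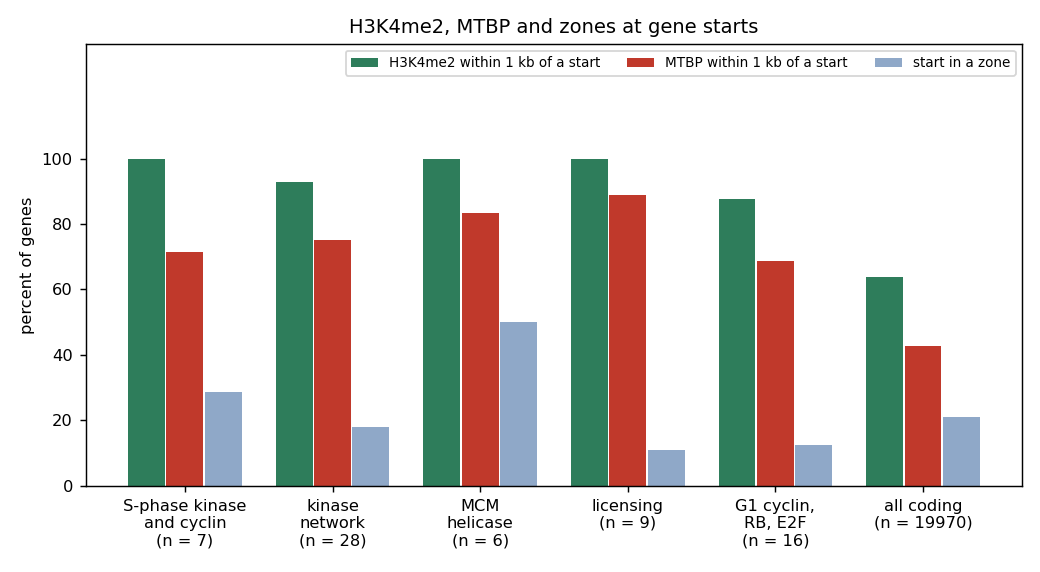
Percent of genes with H3K4me2 (green) or MTBP (red) within 1 kb of a start, or with a start in a zone (blue), for the 7 genes, the 28 network genes, 3 related groups and all 19970 protein-coding genes. MTBP is at 71.4% of the 7 and 42.7% of all genes, and a start is in a zone at 28.6% and 20.9%.

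The genes with the most similar windows were sought over 5 measures (numbers of MTBP and H3K4me2 peaks, summed WT and deltaC values, and the share in zones) among the 19970 genes. The closest was NPAT for CDC7 (summed values 633.7 in deltaC and 1112 in WT, and in that order below), CENPO for DBF4 (612.3 and 855.0), NT5DC2 for DBF4B (363.6 and 1103), TNFRSF13C for CDK2 (827.7 and 1568), HEPACAM2 for CCNE2 (735.5 and 819.9) and HYPK for CCNA2 (304.3 and 544.0). The members' own summed values were 656.8 and 1115 for CDC7, 621.6 and 853.2 for DBF4, 356.1 and 1029 for DBF4B, 908.2 and 2111 for CDK2, 806.8 and 702.2 for CCNE2 and 341.7 and 493.5 for CCNA2 (deltaC and WT). CCNE1 had 349 genes with exactly its profile of 3 H3K4me2 peaks and nothing else.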

How the data were processed

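The submitters' processing notes name hg38 as the build and list HOMER, MACS2, Bowtie2 and Trim Galore. The sources used here give no versions, and do not say whether replicates were pooled or which libraries gave the zones. The authors deposited an MTBP list with a score per peak and a signal per line (WT and deltaC) of unstated scaling, a zone list with a mean score, and an H3K4me2 list with a score, a fold over background and −log10 p- and q-values. The lists carry no read depth, so the counting error of the values is unknown here.

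Genes came from RefSeq (GRCh38.p14). A row counted for a gene when it overlapped the gene span plus 20 kb a side by at least 1 bp. MTBP and zone coordinates are printed as the files give them, and H3K4me2 starts were raised by 1 from the BED form. Starts came from RefSeq's promoter windows for 15811 genes, and either end counted for the other 4159. deltaC was compared with WT as log2((deltaC + 1)/(WT + 1)), and called past 2-fold without a test, since each line has 1 value. Peaks on Y (10 MTBP) were left out. Named genes were the 7 members, neighbours with a start in a window, the 28 network genes and, per member, the gene of smallest Euclidean distance over 5 measures, each divided by its SD. No promoter sequence was matched for CDK2 and CCNE2. The members and lists were chosen with earlier results of these data known. The overlap code was checked on simulated intervals. The scripts ran in Python 3.11.15 with pandas 2.3.3, numpy 2.4.6, scipy 1.17.1 and matplotlib 3.10.9. The untagged, IgG and G1-arrested libraries were not analysed here. Alternatives were the flank, the overlap, score minimums, the pseudocount, centring and leaving out each gene.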

Additional observations from a re-analysis of the deposited data

How the results depend on the processing

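Of 47 values computed under other settings, 16 moved, 1 changed sign and 30 were counted as unmoved, by a broad rule. Those 30 include 8 MTBP and 13 H3K4me2 peaks with 10 kb added, against 12 and 18. They also include 2 genes with a zone, against 3. That was so with 0 kb added, with at least 50% of the row inside and with a zone score minimum. With 0 kb added to the genes there were 7 MTBP and 10 H3K4me2 peaks and 1 peak past 2-fold, with 10 kb added 2 past 2-fold, and with 50 kb added 21 and 34 peaks, 9 past 2-fold and a median log2 ratio of -0.92, because the windows hold fewer or more rows. With only MTBP peaks of at least the list median score, 6 remained, 2 of them past 2-fold, with a median of -0.87, and 33.3% of H3K4me2 peaks had MTBP. That share was 27.8% when MTBP had to cover at least 50% of the H3K4me2 peak. Centring on the list median turned the median log2 ratio to 0.16 and left 2 peaks past 2-fold, both higher in deltaC. No list share was computed at that setting. With each gene left out in turn the median ran from -0.87 (without CCNE2, and without CCNA2) to -0.73. The number of genes with MTBP at a start was 5 with a 5-kb limit and with the start inside a peak, and 4 with the score minimum. Leaving out a replicate was not run, because each line has 1 value. No paired analysis was possible because the lists hold no value per replicate. The absence of replicate values and the unstated scaling of the 2 lines limit every deltaC to WT ratio.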

Other observations

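MTBP and H3K4me2 did not peak at the same base at these genes. The distance between the MTBP summit and the summit of the H3K4me2 peak beneath it ran from 4 to 1113 bp over the 12 peaks, with a median of 315 bp. It was under 50 bp at 3 peaks: the DBF4B intron (4 bp), the PMEL intron near CDK2 (30 bp) and the L1PB1 element beyond DBF4 (36 bp). None of the 3 was of promoter class. It was 1113 bp at CCDC43 and 1093 bp at DBF4, the 2 highest. This distance was not computed over the list, so it has no background. Whether it is particular to these genes, or general to promoter-class peaks, cannot be said. MTBP peaks at these genes had a median width of 1269 bp, against 938 bp over the list.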
